A study of Papilio xuthus with 16 samples.

Results

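The epidermis of the V-shaped marking was compared with green epidermis of the abdomen in larvae of the fourth instar of the swallowtail butterfly Papilio xuthus. The comparison was made on 5 of the 16 two-colour microarrays of the series, chosen by their tissue labels: abdominal green in the Cy3 channel and the V-shaped region in the Cy5 channel. Of the other 11 arrays, 5 set the thoracic eyespot against thoracic green at the same stages and 6 belong to the third instar. The V-shaped marking came from abdominal segments 4 and 5, and abdominal green from unmarked parts of abdominal segments 3 and 4. There was 1 array for the intermolt (day 2 of the fourth instar) and 1 each for 1, 4, 10 and 13 h after head capsule slippage, the moment early in the molt when the old head capsule comes loose. The molt that follows gives the fifth instar, which is green with dark markings, and no larva was treated. The labels name no separate animals, the dyes were never exchanged, and the intermolt and 1 h arrays lay on 1 slide and the 4, 10 and 13 h arrays on another. Dye, marking and body segment therefore cannot be told apart, and the spread over arrays holds both stage and error. With 5 arrays the smallest 2-sided p of an exact sign-flip test is 0.0625, so the tests below are limma fits across all sequences.

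A green larva owes its colour to a blue bilin and a yellow carotenoid, which are held by binding proteins. Bilin binding proteins belong to the lipocalins, small carriers with a barrel-shaped pocket, and the takeout/JHBP family, named after juvenile hormone binding proteins, holds carriers of small lipophilic molecules. Black comes from melanin, which is laid down in the new cuticle from oxidised tyrosine derivatives. The secreted protein Yellow promotes black melanin, Ebony diverts dopamine to a compound that gives pale or tan cuticle, and Laccase2 oxidises the catechols that harden and darken cuticle. The cuticle itself is chitin bound by many cuticular proteins, whose families are named by their sequence motifs (CPR for the Rebers and Riddiford motif, CPG for glycine-rich proteins, CPT for those with a Tweedle motif).

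The probes are 60 bases long, and the letters of 7 of them are given because the pigment, melanin and cuticle results below rest on genes with near relatives. Capitals mark the longest run of letters that a probe shares with another of the 432 genes whose sequence was at hand, and the longest such run among these probes was 14 bases.
Px-0220, carotenoid binding protein 2: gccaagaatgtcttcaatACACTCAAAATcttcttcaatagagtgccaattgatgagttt
Px-0019, carotenoid binding protein 1: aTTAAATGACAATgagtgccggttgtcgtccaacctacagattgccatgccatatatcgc
bilin binding protein 3: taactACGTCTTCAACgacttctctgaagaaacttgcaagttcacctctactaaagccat
yellow-h3: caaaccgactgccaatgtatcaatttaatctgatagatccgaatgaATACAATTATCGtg
yellow-h2: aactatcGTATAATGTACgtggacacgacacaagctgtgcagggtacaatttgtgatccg
PxutCPG7: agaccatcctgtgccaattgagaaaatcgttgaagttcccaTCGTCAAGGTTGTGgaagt
PxutCPG8: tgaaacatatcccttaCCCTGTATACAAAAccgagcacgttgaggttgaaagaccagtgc
None of these runs was shared with a relative in the same family among the 432 genes. Relatives outside those genes could not be checked. The probe of Px-0220 shown here had a mean log2 ratio of 5.23 (adjusted p = 0.0110 by limma), and the probe of Px-0019 one of -2.76 (adjusted p = 0.320).

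Between 78.0% and 86.3% of the 8697 probes for P. xuthus were well above background in each of the 10 channels by the scanner software's own test, and 3033 to 3173 of 3380 sequences were measured on each array. A sequence, called a gene below, counted as measured at a stage when at least 1 of its probes was well above background in at least 1 channel. The log2 ratio is that of the processed signals, V-shaped marking over abdominal green, averaged over the probes of a gene, so 1 is a 2-fold excess in the marking and -1 a 2-fold deficit. The median over probes lay between -0.04 and 0.02 on each array. On the 1 h array, probes dim in both channels had a median log2 ratio of -1.20, against -0.07 to 0.06 on the other 4 arrays, so a gene below background there reads as lower without having been measured. Ratios with a dim channel also shrank when the background was corrected by normexp with an offset: of 159 values of named genes at least 2-fold on an array, 52 were under 2-fold with normexp and loess. Signals were not scaled between arrays, so levels are compared here within an array and courses over stages are those of the ratio.

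The marking and the green epidermis differed by 2-fold or more in a small share of genes, and the side with more of them changed with the stage and, before 13 h, with the scaling. In the intermolt 47 of 3095 measured genes (1.52%) were at least 2-fold higher in the V-shaped marking and 60 (1.94%) at least 2-fold lower. At 1 h these were 83 (2.62%) and 189 (5.96%) of 3173, and at 4 h 71 (2.33%) and 187 (6.14%) of 3048. At 10 h 51 of 3095 genes (1.65%) were higher and 80 (2.58%) lower. At 13 h the balance turned, with 214 of 3033 (7.06%) higher and 67 (2.21%) lower. Counted only on probes well above background in both channels, 62 genes were higher and 156 lower at 1 h, and 166 higher and 62 lower at 13 h. With normexp and loess lower genes were again more frequent at the first 4 stages, with 42 higher and 82 lower at 1 h, and at 13 h 125 were higher and 26 lower. With normexp and median centring the excess of lower genes was lost at 1, 4 and 10 h (48 higher and 45 lower, 89 and 64, and 50 and 35), while 13 h kept its direction with 176 higher and 11 lower. These counts describe single arrays and have no replicate check.

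**Figure D1:**
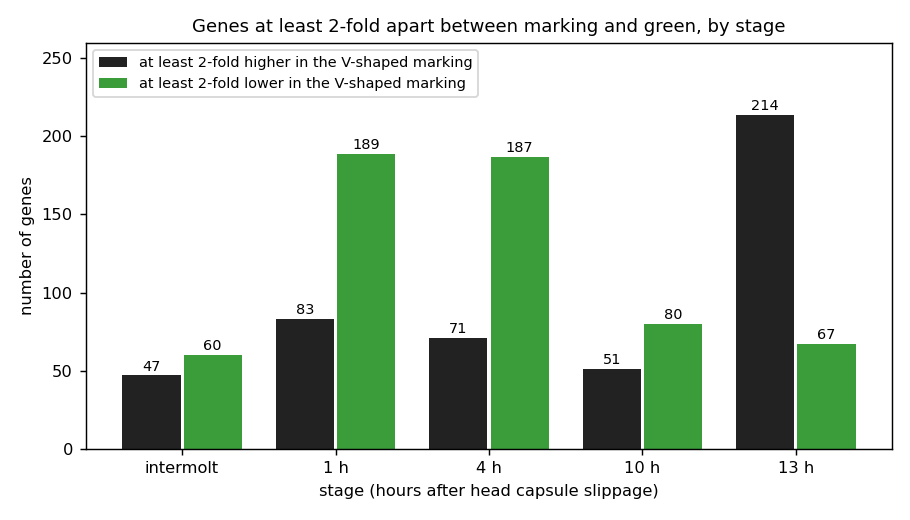
Number of genes (y axis, starting at 0) at least 2-fold higher (black) or lower (green) in the V-shaped marking than in abdominal green, for each of the 5 stages (x axis). Lower genes outnumber higher ones in the first 4 stages, by 189 to 83 at 1 h and 187 to 71 at 4 h, whereas 214 are higher and 67 lower at 13 h; with normexp and median centring only 13 h kept its direction among the 4 molt stages.

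Of the 214 genes higher at 13 h, 183 were measured on all 5 arrays. Only 29 of these 183 were above 0 at the other 4 stages too, 68 were below 0 at all 4, and 101 were at least 2-fold lower at 1 h or 4 h. Across the 2500 genes measured in both channels of every V-shaped and eyespot array, the ratios of the 4 and 10 h arrays had a Pearson correlation of 0.59. Those of the 4 and 13 h arrays had one of -0.08, and those of the intermolt and 13 h arrays one of 0.04. Genes are not independent replicates, and each pair compares single arrays of different stages.

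Over the 5 arrays together, limma called 11 of the 8697 probes (0.126%) at a Benjamini-Hochberg adjusted p under 0.05. All 11 were higher in the V-shaped marking, and they belong to 2 genes, Px-0011 and Px-0220. On gene means 1 of 3380 genes (0.0296%), Px-0011, was higher and 0 (0.0%) lower, while 427 had an unadjusted p under 0.05. A fit over all 16 arrays, in which the spread is shared with the comparisons of the eyespot and of the third instar, called 16 genes higher (0.473%) and 34 lower (1.01%). Of 2774 genes measured on all 5 arrays, 479 (17.3%) had the same sign on each, 233 of them higher in the marking. Px-0011 and Px-0220 were 2 of the 3 genes at least 2-fold higher on all 5 arrays, and 1 gene was at least 2-fold lower on all 5. The remaining higher gene and the lower gene carry no gene number.

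Px-0011 encodes a secreted protein of unknown function that the study names a black related protein, and it was higher in the V-shaped marking at every stage. Its signal was 715, 22780, 76900, 33980 and 7571 in the V-shaped marking in the intermolt and at 1, 4, 10 and 13 h, against 121, 1275, 6225, 2994 and 589 in abdominal green. The marking was thus above green on each array, by 5.92-fold in the intermolt and by 11.4-fold to 17.9-fold after head capsule slippage. The log2 ratio averaged 3.51 ± 0.58 (SD, n = 5 arrays), with an adjusted p of 0.0198 by limma, and the same fit over 16 arrays gave an adjusted p of 5.36e-06. Of its 8 probes, 6 were called, with mean log2 ratios between 3.22 and 4.87. The exception on the low side was a probe not well above background in either channel at any stage, with a mean of 0.90. In these bulk samples fewer cells that express a gene and less of its RNA per cell cannot be told apart. The call on the gene mean was lost without the 1, 4, 10 or 13 h array, with adjusted p between 0.0888 and 0.269, although the mean stayed between 3.34 and 3.51. It was also lost with the slide as a term (adjusted p = 0.0816), with normexp and loess (0.139, at 3.26-fold in the intermolt and 8.12-fold to 15.8-fold in the molt) and with floored signals (0.0582), with means of 3.48, 3.08 and 3.25.

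Px-0220, the takeout/JHBP protein that the study calls putative carotenoid binding protein 2 (PCBP2), was the other gene with called probes, and its excess was larger. In the V-shaped marking its signal was 412, 1861, 20320, 84950 and 104000 from the intermolt to 13 h, against 58.2, 96.2, 301, 2130 and 3834 in abdominal green. The ratio was smallest in the intermolt, at 7.08-fold, and largest at 4 h, at 67.5-fold, or 3.85-fold and 38.8-fold with normexp and loess. Signals in both epidermal regions were highest on the 13 h array. The mean log2 ratio was 4.65 ± 1.22 (SD, n = 5 arrays), and the gene mean missed the threshold with an adjusted p of 0.111 by limma. It passed with 0.00330 over 16 arrays, and with 0.0151 when the median over probes replaced the mean. The 8 probes did not agree: 5 were called, with means between 5.23 and 5.50, 1 had a mean of 6.26, and 1 had a mean of -0.85. That last probe read -5.12 in the intermolt and 2.64 at 4 h, from signals of 3.91 and 62.4 in the marking and 136 and 9.99 in green. The other 7 probes lay between 3.43 and 4.18 in the intermolt.

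**Figure D2:**
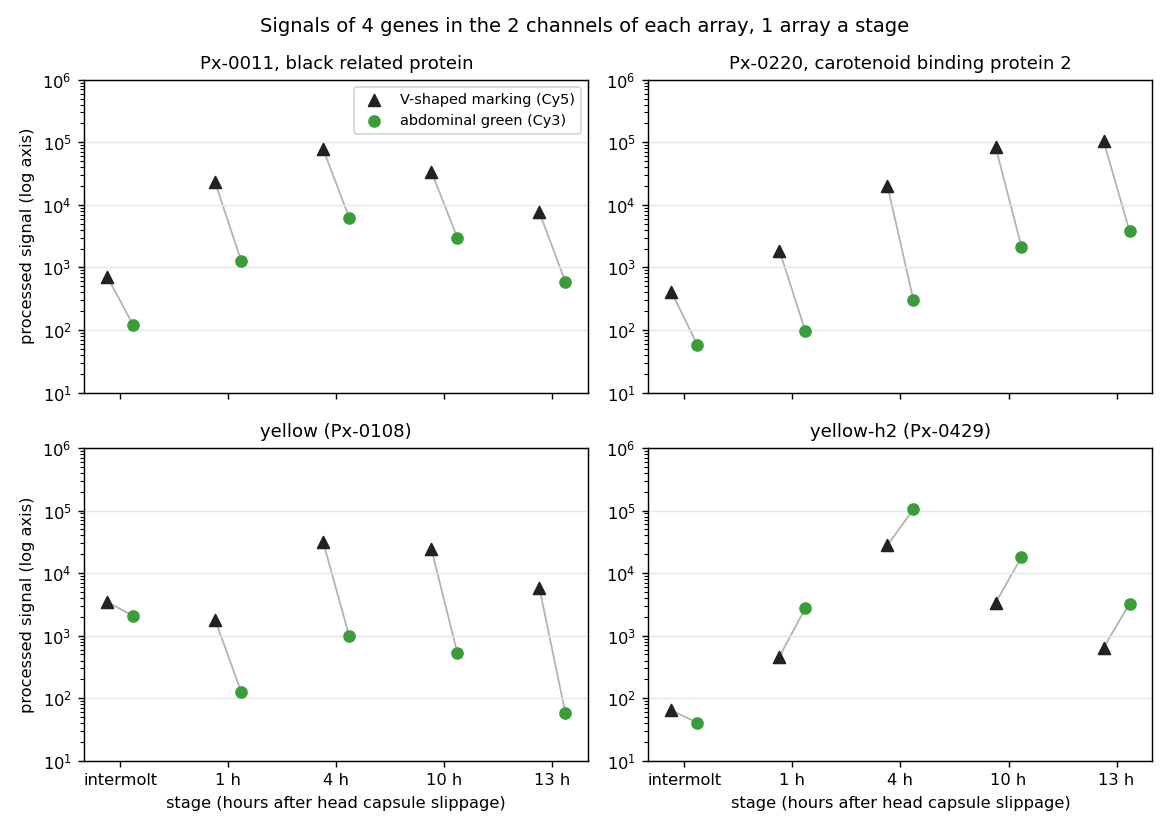
Processed signal (log axis) of Px-0011, Px-0220, yellow and yellow-h2 in the V-shaped marking (black triangles) and in abdominal green (green circles) on the 1 array of each stage (x axis), with grey lines joining the channels of an array. The marking is above green at all 5 stages for the first 3 genes, and below green after the intermolt for yellow-h2, with 459 against 2755 at 1 h.

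Among the bilin binding proteins, no member differed from abdominal green beyond the spread over stages, and the direction depended on the stage. All 5 genes of the pigment-binding list (4 bilin binding proteins and the yellow related gene) failed the test, and their mean log2 ratios ran from -0.78 to 0.30, with a median of -0.37 against -0.03 over all genes. Bilin binding protein 1 had signals of 34390, 72070, 32980, 90210 and 114100 in the V-shaped marking, against 37970, 18550, 49530, 173700 and 269300 in abdominal green. It was thus 3.89-fold higher in the marking at 1 h and 2.36-fold lower at 13 h. Its mean log2 ratio was -0.19 ± 1.27 (SD, n = 5 arrays, adjusted p = 0.877 by limma). That sign does not hold under each scaling: with normexp background correction and median centring the mean was 0.43.

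Bilin binding protein 2 had a similar course, with log2 ratios of -0.25, 0.81, -2.24, -0.92 and -1.30. The lowest value, at 4 h, came from signals of 9505 in the V-shaped marking and 44810 in abdominal green. Its mean was -0.78 ± 1.14 (SD, n = 5 arrays, adjusted p = 0.482 by limma). Bilin binding protein 3 ran the other way. Its signal was 3048, 6523, 2538, 2612 and 1648 in the marking, against 6961, 12370, 5400, 2802 and 601 in green. It was lower in the marking at the first 4 stages and 2.74-fold higher at 13 h, where 3 of the 5 fat body and haemocyte markers were also at least 2-fold higher, or 2 of the 5 with floored signals or either normexp scaling (values below). Bilin binding protein 4 was well above background in both channels only at 10 and 13 h, with a log2 ratio of -2.27 at 13 h from signals of 585 in the marking and 2824 in green. The yellow related gene, a protein associated with yellow coloration in this species, stayed within 2-fold on every array, between -0.10 and 0.78.

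Of the 9 takeout/JHBP genes with a gene number here, Px-0220 stood on 1 side and Px-0019, putative carotenoid binding protein 1 (PCBP1), on the other. The paper shows more members of this family from these arrays, and those were not examined. The 9 means had a median of -0.31 (0.03 with normexp and median centring) and ranged from -2.51 to 4.65. Px-0019 had signals of 990, 899, 4891, 158800 and 187300 in the V-shaped marking, against 66980, 8581, 16760, 228000 and 350600 in abdominal green. It was lower in the marking on all 5 arrays, by 67.7-fold in the intermolt, 9.54-fold at 1 h, 3.43-fold at 4 h, 1.44-fold at 10 h and 1.87-fold at 13 h. The mean of -2.51 ± 2.26 (SD, n = 5 arrays) did not pass the test (adjusted p = 0.354 by limma).

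The deficit of Px-0019 was therefore largest before the molt and smallest late in it. The ratios of both genes increased over the first 3 stages, which narrowed the deficit of Px-0019 and widened the excess of Px-0220. The change from the early (1 and 4 h) to the late (10 and 13 h) arrays was 1.80 for Px-0019 and -0.14 for Px-0220 on the log2 scale, with adjusted p of 0.605 and 0.949 by limma. Px-0064 had the same early deficit, with signals of 65.6 in the V-shaped marking and 779 in abdominal green in the intermolt (a log2 ratio of -3.57, or -2.20 with normexp and loess), but log2 ratios of only 0.04 and -0.38 at 10 and 13 h. It was not well above background in either channel at 1 and 4 h. Px-0150, measured on all 5 arrays, was lower in the marking on each, between -1.43 and -0.08, with an adjusted p of 0.330. The other 5 members (Px-0207, Px-0230, Px-0271, Px-0283 and Px-0404) had means between -0.37 and 0.35, with 1 measured value outside 2-fold, -1.24 for Px-0404 at 13 h.

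**Figure D3:**
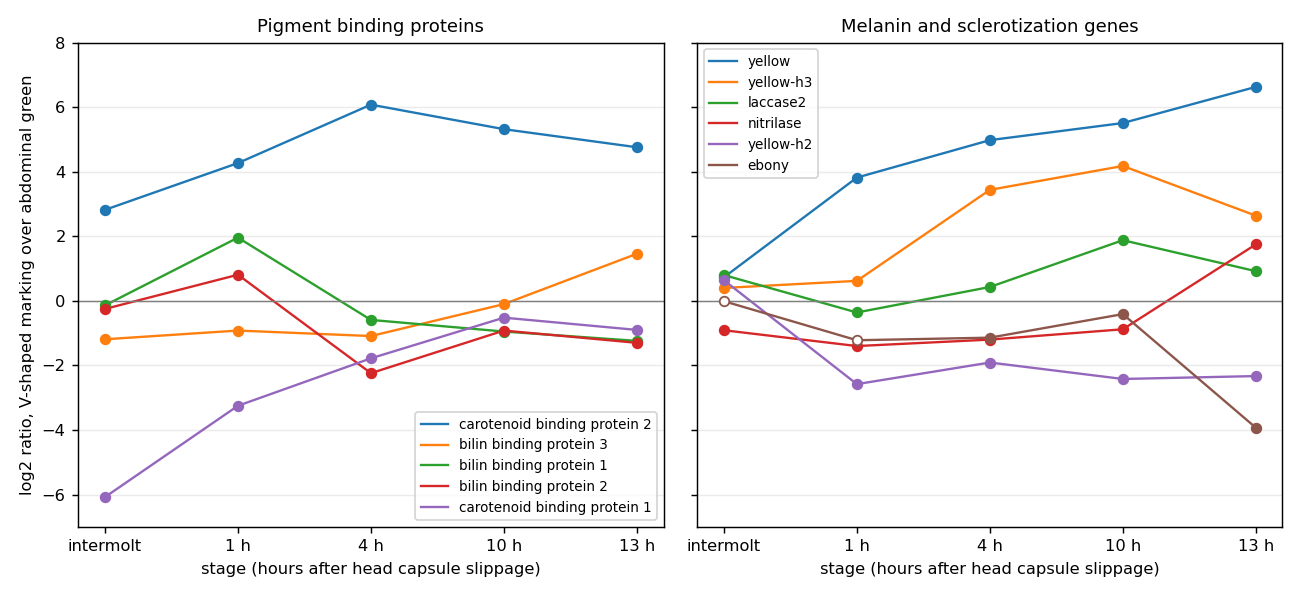
Log2 ratio of the V-shaped marking over abdominal green (y axis) at each stage (x axis) for 5 pigment binding proteins (left) and 6 melanin and sclerotization genes (right), 1 array a stage, with open points where neither channel was well above background. Px-0220 and yellow lie above 0 throughout, Px-0019 climbs from -6.08 in the intermolt to -0.90 at 13 h, and yellow-h2 lies below 0 after the intermolt.

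In the melanin and sclerotization list, 13 of 14 genes had a probe, 0 passed the test over the 5 arrays and 1, yellow, passed over 16 arrays. The median of their means was -0.18, against -0.03 over all genes. Yellow, which promotes black melanin, had signals of 3449, 1778, 30950, 24180 and 5736 in the V-shaped marking, against 2082, 126, 977, 532 and 57.9 in abdominal green. The marking exceeded green 1.66-fold in the intermolt, 14.1-fold at 1 h, 31.7-fold at 4 h, 45.4-fold at 10 h and 99.0-fold at 13 h. With normexp and loess the 1 h value was 7.26-fold. The excess grew from stage to stage up to 10 h, but the further growth at 13 h depended on the scaling, since the same scaling gave 29.1-fold at 10 h and 23.8-fold at 13 h. The mean log2 ratio of 4.33 ± 2.25 (SD, n = 5 arrays) had an adjusted p of 0.206 by limma on these arrays and of 0.0151 over 16 arrays. At 13 h only 2 of its 9 probes were well above background in both channels, and the probes ranged from 3.95 to 8.92.

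A pair of relatives of yellow lay on opposite sides of 0 after the intermolt. Yellow-h3 had signals of 9468, 1079, 32970, 32370 and 16680 in the V-shaped marking, against 7152, 702, 3030, 1781 and 2668 in abdominal green. Its log2 ratio was 0.40 and 0.62 at the first pair of stages and 3.44, 4.18 and 2.64 at 4, 10 and 13 h. All 3 of its probes gave 3.26 to 3.64 at 4 h. The mean was 2.26 ± 1.69 (SD, n = 5 arrays, adjusted p = 0.313 by limma).

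Yellow-h2 was brighter in green. In the V-shaped marking its signal was 63.8, 459, 27940, 3330 and 644, against 40.9, 2755, 104900, 17870 and 3245 in abdominal green. The marking was 6.00-fold lower at 1 h, 3.75-fold at 4 h, 5.36-fold at 10 h and 5.04-fold at 13 h, and 1.56-fold higher in the intermolt, where both signals were low. The mean of -1.72 ± 1.34 (SD, n = 5 arrays) had an adjusted p of 0.330 by limma. Without the intermolt array the 4 molt arrays averaged -2.31 and the gene passed, with an adjusted p of 0.0210. Yellow-e, another member, was lower in the marking on all 5 arrays, from -1.23 at 1 h to -0.18 at 13 h.

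Ebony and laccase2 were each set apart at 1 late stage. Ebony was not well above background in the intermolt or at 1 h, had log2 ratios of -1.14 and -0.41 at 4 and 10 h, and stood at -3.93 at 13 h. Its signals there were 552 in the V-shaped marking and 8394 in abdominal green. This was the lowest ratio of any named gene with a signal above 1000 at 13 h. Laccase2 had log2 ratios of 0.80, -0.36, 0.43, 1.88 and 0.92, with 5032 in the marking and 1367 in green at 10 h (adjusted p of the mean = 0.396 by limma). The nitrilase Px-0357 was lower in the marking at the first 4 stages, between -1.40 and -0.88, and at 1.75 at 13 h (0.89 with normexp and loess). The pteridine enzymes dihydropteridine reductase and pterin-4a-carbinolamine dehydratase, which regenerate the cofactor of tyrosine hydroxylase, stayed within 2-fold on all 5 arrays. Tyrosine hydroxylase and dopa decarboxylase were not analysed here. Of the ommochrome and purine genes, cinnabar, a kynurenine hydroxylase of ommochrome synthesis, was 1.94 in the intermolt and -2.74 at 13 h, and not well above background at 1 and 4 h.

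Among the cuticular protein genes with a gene number here, those at least 2-fold higher in the V-shaped marking outnumbered those lower at every stage. The excess was largest at 4 and 13 h, in the processed signals, although none passed the test over the 5 arrays. These 63 genes had a median mean log2 ratio of 0.25, against -0.03 over all genes, and 0.08 to 0.44 under 5 other scalings. The paper shows more cuticular protein genes from these arrays, so the counts and family medians cover only part of the group. Over 16 arrays 2 of them passed, among 50 of all 3380 genes. At 4 h 11 of 60 measured were at least 2-fold higher in the marking and 1 was lower, and at 13 h 15 of 59 were higher and 1 lower. In the intermolt 10 were higher and 7 lower of 54, at 1 h 7 and 3 of 54, and at 10 h 6 and 2 of 61. Of all measured genes 2.33% were higher and 6.14% lower at 4 h, and 7.06% and 2.21% at 13 h. These shares were 1.52% and 1.94% in the intermolt, 2.62% and 5.96% at 1 h, and 1.65% and 2.58% at 10 h. With normexp and loess the counts were 3 higher and 2 lower in the intermolt, 2 and 2 at 1 h, 7 and 1 at 4 h, 5 and 0 at 10 h and 12 and 0 at 13 h. With floored signals more were lower than higher in the intermolt (5 higher and 6 lower) and at 1 h (4 and 6), so the excess of higher genes at these stages depended on the scaling. By family the medians of the means were 0.14 for 29 CPR, 0.40 for 21 CPG, 0.82 for 5 CPT and 0.15 for 6 CPH genes.

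CPG7 and CPG8, glycine-rich proteins, gave almost equal signals in both regions on the 1 and 4 h arrays and differed on the 10 and 13 h arrays. CPG7 had 41.2, 69590, 253800, 3178 and 2595 in the V-shaped marking, against 13.7, 69550, 226100, 751 and 124 in abdominal green. The ratio was thus 1.00-fold at 1 h and 1.12-fold at 4 h, but 4.23-fold at 10 h and 20.9-fold at 13 h (8.66-fold with normexp and loess). CPG8 had 375, 69530, 249500, 6308 and 4671 in the marking, against 126, 61300, 194600, 1161 and 608 in green, which is 5.43-fold at 10 h and 7.68-fold at 13 h. The mean log2 ratios were 1.65 ± 1.77 and 1.50 ± 1.23 (SD, n = 5 arrays each), with adjusted p of 0.393 and 0.330 by limma. CPG8 passed over 16 arrays, with 0.0408. The early to late change of CPG8, 2.42 on the log2 scale, had an unadjusted p of 0.000880 and an adjusted p of 0.605 by limma.

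CPR146 was the other cuticular protein called over 16 arrays, with an adjusted p of 0.0289. Its signal was 5640, 18900, 9809, 9882 and 6763 in the V-shaped marking, against 5197, 10020, 3197, 1965 and 412 in abdominal green. The marking was 1.09-fold higher in the intermolt and 16.4-fold higher at 13 h, and each stage had a larger excess than the one before. The mean was 1.80 ± 1.49 (SD, n = 5 arrays), with an adjusted p of 0.330 over these arrays by limma.

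Other members stood out at single stages. CPR27A was 10.7-fold higher in the V-shaped marking at 1 h, at signals of 165 in the marking and 15.4 in green, or 2.63-fold with normexp and loess, and slightly lower from 4 h on. CPT5 was 24.1-fold higher at 4 h, with 589 in the marking and 24.4 in green, or 4.43-fold with normexp and loess, and CPR41C, CPT4, CPH33 and CPT1 had log2 ratios of 3.05, 2.71, 2.52 and 2.51 there (CPR41C 1.10 with normexp and loess). At 13 h CPT3, CPT4, CPR17 and CPG20 had 2.73, 2.48, 2.41 and 2.32. CPT3, CPR17 and CPG20 were within 2-fold at 1, 4 and 10 h. In the processed signals genes on the low side were most frequent in the intermolt, among them CPR91 at -2.60 and CPR32 at -2.27, from signals of 13.1 and 101 in the marking and 79.7 and 486 in green (-0.68 and -1.40 with normexp and loess). CPG18 had -1.44 at 4 h and 2.67 at 13 h.

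**Figure D4:**
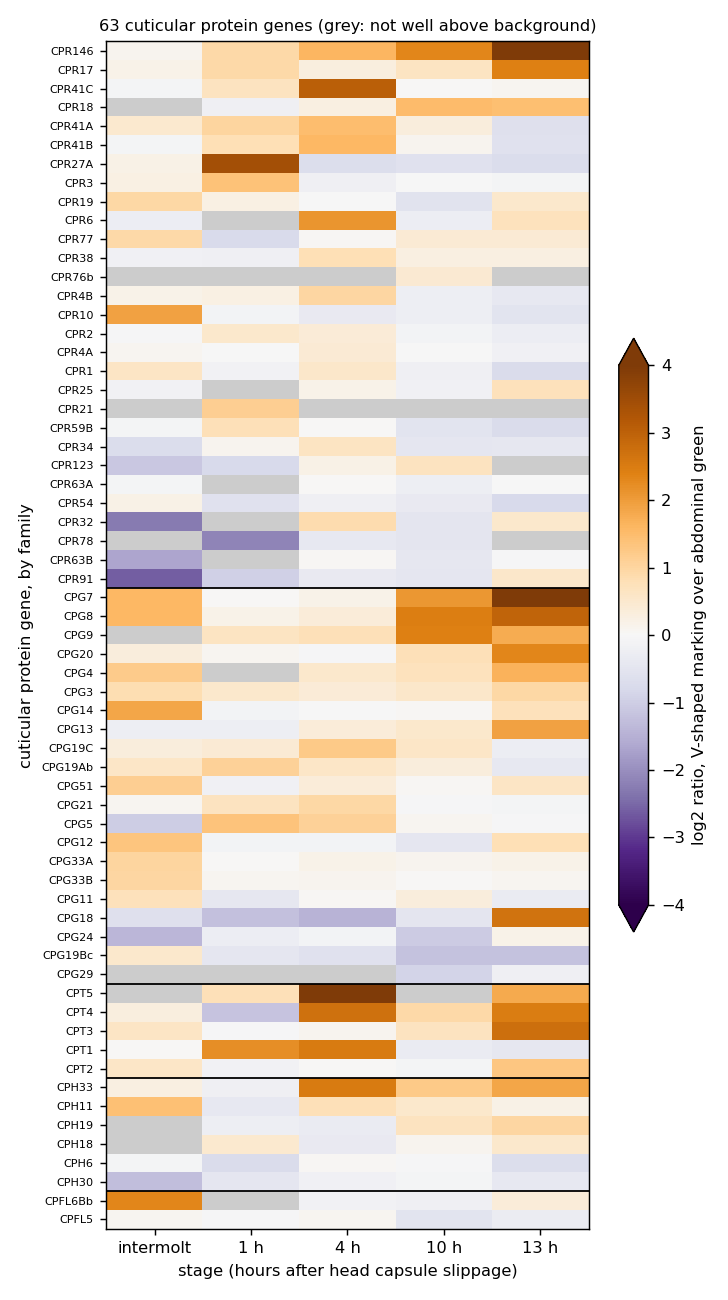
Log2 ratio of the V-shaped marking over abdominal green (colour, orange for higher and purple for lower in the marking, scale cut at 4) for 63 cuticular protein genes (rows, by family) at 5 stages (columns, 1 array each), with grey where neither channel was well above background. At 4 h and 13 h 11 and 15 genes are at least 2-fold higher and 1 is lower at each, whereas in the intermolt 10 are higher and 7 lower. Of all measured genes 2.33% are higher at 4 h and 7.06% at 13 h.

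Genes that are switched off late in the molt were also examined, by a measure from other arrays, the change of the thoracic green signal between the 4 and 13 h eyespot arrays. Of 110 genes of any kind that fell over 16-fold there, 26 (23.6%) were at least 2-fold higher in the V-shaped marking at 13 h and 1 was lower, and their median log2 ratio was 0.47. Of 533 genes that stayed within 2-fold there, 18 (3.38%) were higher and 1 was lower, and their median was -0.01. With normexp and loess these were 11 higher and 1 lower of 110, at a median of 0.20, and 18 higher and 1 lower of 533. At 4 h the 110 genes had 2 higher and 1 lower. At 10 h they had 18 higher (16.4%) and 3 lower, at a median of 0.30, or 6 higher and 1 lower with normexp and loess. Of the 533 genes 1 was higher and 4 were lower at 10 h. Of all measured genes 1.65% were higher at 10 h and 7.06% at 13 h. Of 152 genes that rose over 2-fold in thoracic green, 7 were higher and 8 lower at 13 h. These groups were formed after results were known and were given no test, and signals were not scaled between the arrays that define them.

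Genes of ecdysone and juvenile hormone action were mostly within 2-fold. Of 18 genes none passed, and the median mean was -0.13. At 1 h 4 measured values lay below -1, the lowest that of juvenile hormone epoxide hydrolase 2 at -4.05 (-1.01 with normexp and loess). With the same scaling Kruppel homolog 1 read -0.55 and ftz transcription factor 1 -0.25, within 2-fold, and membrane steroid binding protein -1.12. Above 1 lay 1 value at 10 h and 1 at 13 h. Both high values were those of 3-dehydroecdysone 3b-reductase, which returns 3-dehydroecdysone to ecdysone. It had 24280, 10920, 2499, 169000 and 191600 in the V-shaped marking, against 22220, 10030, 1425, 80020 and 79350 in abdominal green, so that the ratio grew to 2.11-fold at 10 h and 2.41-fold at 13 h. Its mean was 0.68 ± 0.53 (SD, n = 5 arrays, adjusted p = 0.330 by limma). The early ecdysone response genes E75A, E75B and E75D had means of 0.08, -0.12 and -0.04, and were lowest at 13 h for E75A and E75D (-0.50 and -0.88) and at 1 h for E75B (-0.59). Hormone receptor 3 was slightly higher in the marking on each array, from 0.21 to 0.40 (adjusted p = 0.231).

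Among 18 patterning genes with a probe, no gene passed over these arrays, and decapentaplegic passed over 16 arrays. Decapentaplegic, a secreted signal of the BMP family, had 265, 293, 433, 131 and 229 in the V-shaped marking, against 140, 184, 296, 85.4 and 110 in abdominal green. It was higher in the marking on 5 of 5 arrays, at a mean log2 ratio of 0.76 ± 0.22 (SD, n = 5 arrays), with an adjusted p of 0.167 over these arrays and 0.0476 over 16 arrays by limma. Daughters against dpp, a gene known in Drosophila as a target and inhibitor of that signal, was higher on 5 of 5 arrays in the processed signals. Its log2 ratios were 0.21, 0.54, 0.98, 0.61 and 0.32 (adjusted p = 0.265). With normexp and loess both means were smaller, 0.48 and 0.18. With floored signals Daughters against dpp read -0.24 at 1 h and 0.01 at 10 h, at a mean of 0.16, while the mean of decapentaplegic was 0.76. A link between the 2 genes was not tested. Wingless, aristaless, cut and achaete were at or near background, so no direction is given for them. Abdominal-A was well above background in both channels only in the intermolt, where it read 1.06, and Ultrabithorax lay between -0.35 and -0.07 at 4, 10 and 13 h.

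Genes of chitin metabolism and cuticle assembly (17), Osiris genes (9) and ribosomal protein genes (76) had 0 calls each over these arrays. The ribosomal protein genes stayed within 2-fold on every array, with a median mean of -0.02, or 0.52 with normexp and median centring. The Osiris genes, a family with strong early molt expression, lay between -0.62 and 0.22 at 1 h and between -0.47 and 0.49 at 4 h. At 10 h, when most of their signals had become low, Osiris 19 was at 1.35 and osiris 9D at 1.10 (0.61 and 0.35 with normexp and loess). In the chitin list 1 gene was at least 2-fold lower in the intermolt, dusky-like Px-0364 at -1.34.

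Markers of other tissues were checked on the same arrays. All 15 muscle genes stayed within 2-fold at every stage, between -0.52 and 0.86, with a median mean of 0.02, or 0.42 with normexp and median centring. The 6 epidermal genes (chitin deacetylase 1, obstructor-A Px-0204, obstructor-B, dusky-like Px-0137, laccase2 and the very low-density lipoprotein receptor) were measured at every stage and within 2-fold at all but 1 value, laccase2 at 10 h, although 3 exceeded 2-fold at 4 h with normexp and median centring. The second obstructor-A gene, Px-0376, read -1.05 at 1 h. The 5 fat body and haemocyte genes were not even. Their median log2 ratio was -0.30, -0.93, -0.64 and -0.36 from the intermolt to 10 h and 1.65 at 13 h. The last value rests on larval serum protein 1 gamma, dim in green, and was 0.30 with floored signals, 0.56 with normexp and loess and 0.92 with normexp and median centring. At 13 h collagen type IV had signals of 14590 in the V-shaped marking and 3595 in abdominal green, sparc 1531 and 488, and larval serum protein 1 gamma 58.6 and 10.5, whereas imaginal disc growth factor 4 read 0.30 and serine protease inhibitor 5 read -0.06. Of the genes above, bilin binding protein 3, CPG18 and the nitrilase Px-0357 had the same turn at 13 h, as did acireductone dioxygenase (Px-0422), an enzyme of methionine salvage, at -1.40 or lower on the first 4 arrays and 2.55 at 13 h. The part of fat body or haemocytes in these values was not tested.

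A second set of sequences turned much further. At 4 and 10 h 20 sequences were at least 4-fold lower in the V-shaped marking, and at 13 h the same 20 were at least 4-fold higher, while 0 sequences showed the reverse. They were picked by this pattern after values were seen, so the figures that follow are a description. Their median log2 ratio was -1.38 in the intermolt (17 of the 20 measured), 3.24 at 1 h, -5.85 at 4 h, -4.78 at 10 h and 4.81 at 13 h. Px-0111, similar to the Drosophila gene CG3699, had signals of 7.71, 4856, 29.0, 23.5 and 709 in the marking, against 20.6, 366, 3415, 2309 and 14.4 in green. Px-0380, a glucosyl or glucuronosyl transferase, an enzyme class that joins sugars to small molecules, had 15060, 756, 184 and 1473 in the marking from 1 h on, against 1668, 17080, 5185 and 49.6 in green. These 2 are the only ones with a gene number. The region with the higher signal thus alternated between stages.

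On the eyespot arrays the same 20 sequences had medians of -2.41, -5.86, -0.49, -2.07 and 5.43. Only 14, 12 and 14 of them were measured there in the intermolt and at 4 and 10 h, so those medians include sequences at background. At 13 h 20 of 20 sequences were above green in the eyespot too, whereas in the V-shaped comparison this was the rule of the pick. At 1 h, a stage not used for the pick, 17 of 18 with a value were higher in the V-shaped marking and 20 of 20 were lower in the eyespot. Leaving the 20 out changed the correlation of the 4 and 10 h V-shaped arrays to 0.56 and that of the 4 and 13 h arrays to -0.04. All muscle genes stayed within 2-fold at these stages, apart from 1 at 10 h and 3 at 13 h with normexp and median centring. The median of the fat body and haemocyte genes had the sign of the 20 sequences in the intermolt and at 4, 10 and 13 h, and the opposite sign at 1 h. The signs of the 20 sequences at 4, 10 and 13 h were set by the pick. With normexp and loess the 20 had medians of -4.33 at 4 h, -3.58 at 10 h and 2.40 at 13 h, where 18 of them were at least 2-fold higher. What the sequences share beyond this course was not tested.

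**Figure D5:**
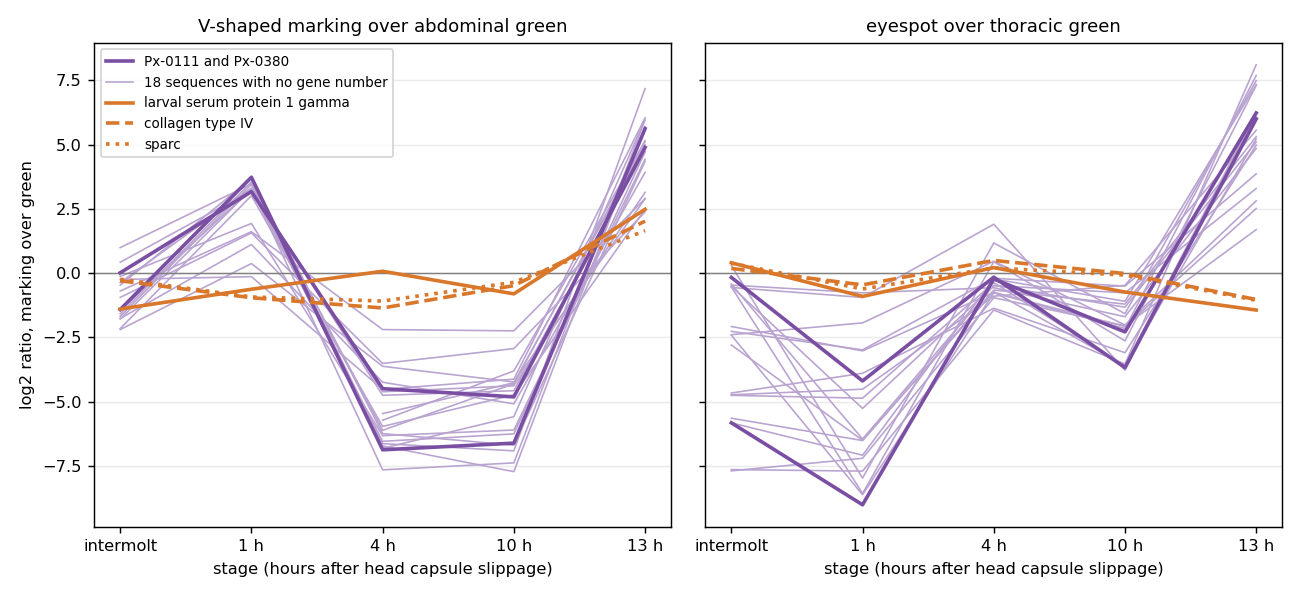
Log2 ratio (y axis) at each stage (x axis) of the 20 sequences picked for their turn between 10 and 13 h (purple, with Px-0111 and Px-0380 in dark purple) and of 3 of the 5 fat body and haemocyte markers (orange), for V-shaped marking over abdominal green (left) and eyespot over thoracic green (right), 1 array a stage. These 3 were at least 2-fold higher in the V-shaped marking at 13 h. Imaginal disc growth factor 4 and serine protease inhibitor 5, not drawn, stayed within 2-fold there. The 20 sequences have medians of -5.85 at 4 h and 4.81 at 13 h on the left, and -0.49 and 5.43 on the right. On the right only 12 of them were measured at 4 h, and 14 in the intermolt and at 10 h.

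The named genes with the highest and lowest ratios at each stage, among those with a signal above 1000, were mostly ones already described. In the intermolt the 3 highest were cinnabar, CPR10 and CPG14 (1.94, 1.93 and 1.85), and the 3 lowest Px-0019, acireductone dioxygenase and larval serum protein 1 gamma (-6.08, -1.46 and -1.40). At 1 and 4 h Px-0220, Px-0011 and yellow held the 3 highest places, and at 10 h yellow, Px-0220 and yellow-h3. At 13 h the highest were yellow, the secreted protein Px-0391 (5.28, with 6035 in the V-shaped marking and 155 in green) and Px-0380. The lowest at 13 h were ebony, cinnabar and yellow-h2.

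Finally the V-shaped effect was set against the eyespot effect, with the arrays of a stage paired. No gene passed (0 of 3380, 0.0%, at an adjusted p under 0.05, and 244 at an unadjusted p under 0.05, by limma). Likewise the change of the V-shaped ratio between the early and late molt arrays was called for 0 genes (0.0%), with 248 at an unadjusted p under 0.05. The mean log2 ratio of Px-0011 was 3.51 in the V-shaped marking and 3.80 in the eyespot, a difference of -0.30 with a 95% interval from -0.82 to 0.23. For yellow the difference was 0.27 (-0.97 to 1.51), and for Px-0220 it was -0.83 (-1.60 to -0.07, adjusted p = 0.641). For yellow-h3 it was 0.67 (0.44 to 0.91, unadjusted p = 0.000470, adjusted p = 0.303), with the V-shaped ratio above the eyespot ratio at every stage.

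Larger differences, none past the threshold, were measured for 2 of the 4 bilin binding proteins. The mean log2 ratio of bilin binding protein 1 was -0.19 in the V-shaped marking and -1.91 in the eyespot, a difference of 1.72 (0.64 to 2.80, adjusted p = 0.519). For bilin binding protein 2 the means were -0.78 and -2.81, a difference of 2.03 (0.94 to 3.11, adjusted p = 0.519). Both were lower than green on all 5 eyespot arrays, and on 4 of 5 V-shaped arrays, the exception in each case being 1 h. For bilin binding protein 3 the difference was -0.05, and for bilin binding protein 4, dim at the first 3 stages, -0.21. That of Px-0019 was 0.95 (-0.27 to 2.17), and that of Px-0064 averaged 0.81 over the 3 stages at which it was measured in both comparisons. CPR146 was at 1.80 in the V-shaped marking and 0.21 in the eyespot, a difference of 1.59 (0.33 to 2.86, adjusted p = 0.559). Ebony had no common course: it was 4.48, 5.05, -5.12, 4.02 and 0.13 on the eyespot arrays. Across genes the ratios of the V-shaped and eyespot arrays of a stage had Pearson correlations of 0.43, 0.49, 0.44, 0.63 and 0.29 from the intermolt to 13 h, as a description over 2500 genes that share probes and slides.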

How the data were processed

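The members and gene lists were chosen with earlier results of these data known. The authors deposited the scanner output of Feature Extraction 9.5.3.1, from 400 ng of total RNA per channel. Its processed signals are linear intensities, which per the file headers are background-subtracted and dye-normalized within each array. The deposited series table holds log10 ratios of the same arrays, used as an alternative. From the authors' signals log2 ratios were computed here, Cy5 over Cy3. Control spots and outlier spots (2 to 106 per array) were left out, and no spot was saturated on the 5 arrays. No fold change or p of the authors was used. Probes were tied to 3380 sequences, 503 with a gene number. Named genes were the pigment, takeout, melanin and hormone lists, genes past the threshold, 3 genes at either end per stage, and examples of other lists. limma 3.58.1 (R 4.3.3) gave the tests of means over 5 arrays, with Benjamini-Hochberg adjustment over 8697 probes or 3380 genes. Means and tests also took in arrays on which a gene was not measured. Other values were computed in Python 3.11. The fits were tested on simulated data. Each log2 ratio has 1 array per stage behind it, so the number of arrays limits the precision. Alternatives were other scalings, spot filters, the slide as a term, pairing by stage, all 16 arrays in 1 fit and leaving out each array.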

Additional observations from a re-analysis of the deposited data

Results flagged for a closer look

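In 2 of the 17 genes examined, 1 array lay far from the other 4 by a criterion that chance meets in about 1 of 20 groups. The log2 ratio of yellow-h2 (Px-0429) was 0.64 in the intermolt, against -2.58 to -1.91 on the 4 molt arrays. The nitrilase Px-0357 read 1.75 at 13 h, against -1.40 to -0.88 on the others. None of the 259 genes examined had V-shaped arrays and eyespot arrays that all lay on opposite sides of 0.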

How the results depend on the processing

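Over all 16 arrays 181 probes and 50 genes passed, with normexp and loess 7 probes and 0 genes, with normexp and median centring 773 probes (743 higher) and 275 genes (257 higher), and with the slide as a term 7 probes and 0 genes. Median centring after normexp raised the median of all genes to 0.071, against -0.033. Floored signals gave 0 genes, the median over probes 2 and probes well above background in both channels 2, which were Px-0011 and Px-0220. Leaving out 1 array gave 0 to 21 probes and 0 to 5 genes: 21 and 5 without the intermolt, 5 and 0 without 1 h, 0 and 0 without 4 h or without 10 h, and 6 and 1 without 13 h, where the gene was Px-0422, lower at -1.46. The adjusted p of Px-0011 ran from 5.36e-06 to 0.269 over these settings. Without pairing by stage (no replicate block) the V-shaped minus eyespot test called 0 genes, with 142 at an unadjusted p under 0.05, and that test and the late minus early test called 0 genes under each alternative run. Of 189 recomputed means of 21 named genes 187 stayed within 1 SD over arrays. The others, both under normexp and loess, were 0.48 for decapentaplegic and -0.71 for lipase 4. Leaving out 1 of 5 arrays cannot move a mean by 1 SD, so for those values the outcome was fixed in advance. The SD also holds the spread between stages, so the count is no measure of robustness. Of 159 values of named genes at least 2-fold on an array, 64 were under 2-fold with normexp and median centring and 52 with loess, and the sign turned for bilin binding protein 4 in the intermolt (1.21, against -0.03 and -0.18) and CPG5 at 1 h (1.36, against -0.18 with a floor). Probes dim in a channel give bounds, and 1 array a stage gives no error for a stage.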

Other observations

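Lipase 4 (Px-0342) was lower in the V-shaped marking wherever it was measured, with log2 ratios of -0.68 in the intermolt, -1.28 at 10 h and -2.26 at 13 h, from signals of 2554 in the marking and 12210 in green at 13 h. At 1 and 4 h it was not well above background. Its mean passed over 16 arrays (adjusted p = 0.0476 by limma) and not over the 5 (adjusted p = 0.183). That mean, -1.40, includes the unmeasured values at 1 and 4 h, and was -0.71 with normexp and loess. The ratio was -2.49 and -2.46 on the 10 and 13 h eyespot arrays. The secreted protein Px-0172 read -1.58 and -1.50 at 1 and 4 h and 2.53 at 13 h, the turn seen in the collagen type IV and sparc genes.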
